A study of Drosophila melanogaster with 9 samples.

Results

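Amun was followed through small RNA libraries of Drosophila melanogaster ovaries, in which its 3′ untranslated region (UTR), the stretch of an mRNA behind the stop codon, was represented by 11 of 8510 rows of the genic tables. Its members were chosen as the rows of the transcripts NM_167298 and NM_001201650, and the gene itself was chosen by its measured sense abundances, which had differed between enok mutants and WT in these same tables. Rows with the same start, strand and values were counted once, which left 2 distinct Amun 3′ UTRs among 4601; rows with different starts stayed separate even where their values were the same. The long form (NM_167298) has its lower coordinate at position 11604153 of chromosome X in the dm3 genome and stands in 2 rows. The short form (NM_001201650) has its lower coordinate at position 11604857 and stands in 9 rows.

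The libraries hold inserts of 18 to 30 nucleotides from total RNA of egg chambers, dissected from females 3 to 5 days old. By the study's methods, egg chambers of the earliest stages were not included. There were 3 libraries each of enok1, enok2 and WT germline clones. The enok gene encodes a histone acetyltransferase; enok1 is described by the study as a truncating allele and enok2 as a missense allele in the catalytic domain. All 3 groups carried hs-Flp, which drives the FLP recombinase from a heat shock promoter, and FRTG13 chromosomes with ovo[D1-18] on the homologue. Larvae of every group were heat shocked repeatedly, at 37 °C for 40 min each time. After this, only germline cells that had lost the ovo[D1-18] chromosome could form late egg chambers. In the enok1 and enok2 groups the retained chromosome carried enok[1] or enok[2], whereas the somatic follicle cells around the germline were not made homozygous by selection and remained in the samples. Nothing in the sample labels says that the 3 libraries of a group came from separate crosses or days, so p-values measure the spread between these libraries.

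Amun encodes a nuclear protein with a putative DNA glycosylase domain, known in flies from its effects on Notch signalling and on the development of sensory bristles. PIWI proteins are guided to transposon transcripts by PIWI-interacting RNAs (piRNAs), most of which come from dedicated clusters. Some protein-coding mRNAs also give rise to piRNAs, mainly in sense and from their 3′ UTRs, with traffic jam (tj) of the follicle cells as the best known ovarian case. The values below are abundances of small RNAs scaled by the microRNAs (miRNAs) that each library contained, so a shift of the miRNAs would move all values of a library alike. In bulk ovaries, a change in the share of a cell type and a change per cell cannot be told apart.

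Sense small RNAs of the long Amun 3′ UTR were about 4 to 5 times as abundant in both mutants as in WT ovaries. The abundances were 33.8, 65.8 and 52.1 in the enok1 libraries, 68.9, 51.7 and 57.2 in the enok2 libraries, and 12.2, 10.4 and 13.9 in the WT libraries. All 6 mutant libraries lay above all 3 WT libraries, with enok1 replicate 1 the lowest of the mutants. The means were 50.6 ± 16.1 in enok1 and 59.3 ± 8.78 in enok2, against 12.2 ± 1.77 in WT (SD, n = 3 each). The ratio of means over WT was 4.16 for enok1 and 4.87 for enok2. The nearest pair, the lowest mutant and the highest WT library, still differed 2.43-fold in the enok1 comparison and 3.72-fold in the enok2 comparison.

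The short Amun 3′ UTR showed the same order of libraries at lower values. Its abundances were 23.9, 49.4 and 41.4 in enok1, 51.2, 36.9 and 41.5 in enok2, and 8.40, 7.98 and 11.4 in WT. Again every mutant library stood above every WT library. The means were 38.2 ± 13.0 in enok1 and 43.2 ± 7.28 in enok2, against 9.26 ± 1.86 in WT (SD, n = 3 each), which are 4.13 and 4.66 times the WT mean. Because Amun had been chosen for this difference, no test of it against WT is given. Among all 298 sense 3′ UTRs that averaged 10 or more over the 9 libraries, limma called 18.5% higher in enok1 and 17.8% higher in enok2 than in WT at an adjusted p under 0.05, and 13.4% higher in both.

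**Figure D1:**
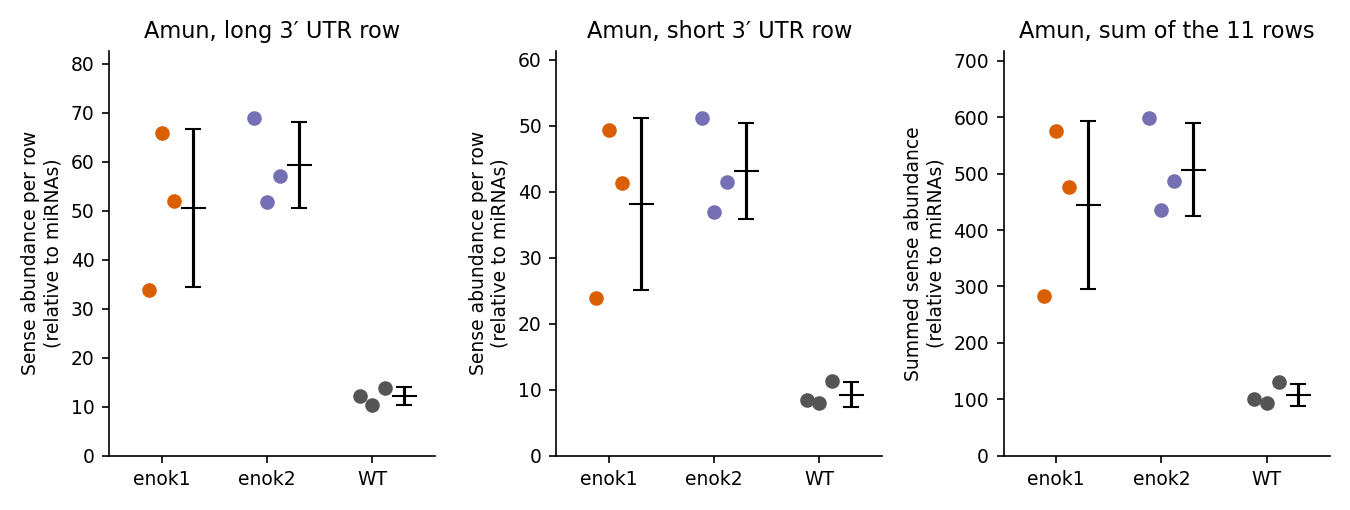
Sense abundance relative to miRNAs (linear axes from 0) of the long Amun 3′ UTR row, the short row and the sum of the 11 Amun rows, by group. Points are libraries 1 to 3 from left to right, and black marks are means ± SD (n = 3); in each panel the 6 mutant points stand above the 3 WT points, for the sum between 283 and 598 against 92.6 to 130.

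On the scale of log2(abundance + 1), which understates the change of low features, the long form differed from WT by 1.93 (SE 0.245) in enok1 and by 2.19 (SE 0.174) in enok2. The corresponding values of the short form were 1.89 (SE 0.262) and 2.11 (SE 0.189). The median of all 298 tested 3′ UTRs was 0.11 in enok1 and 0.06 in enok2, so Amun stood far from the bulk of the table. Ordered by fold change, the 2 Amun forms took ranks 2 and 3 of 298 in enok1, behind fok, a gene known as fledgling of Klp38B. In enok2 they took ranks 1 and 2, with fok at rank 3. These ranks depended on the minimum of 10. At a minimum of 1 the Amun forms took ranks 5 and 6 of 2769 in enok1 and ranks 2 and 3 in enok2. The WT mean of the short form, 9.26, was itself below 10, so this form reached the minimum only through the mutants. The fok 3′ UTR (NM_001201926) had mean abundances of 758.7 in enok1 and 687.7 in enok2, against 178.2 in WT.

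**Figure D2:**
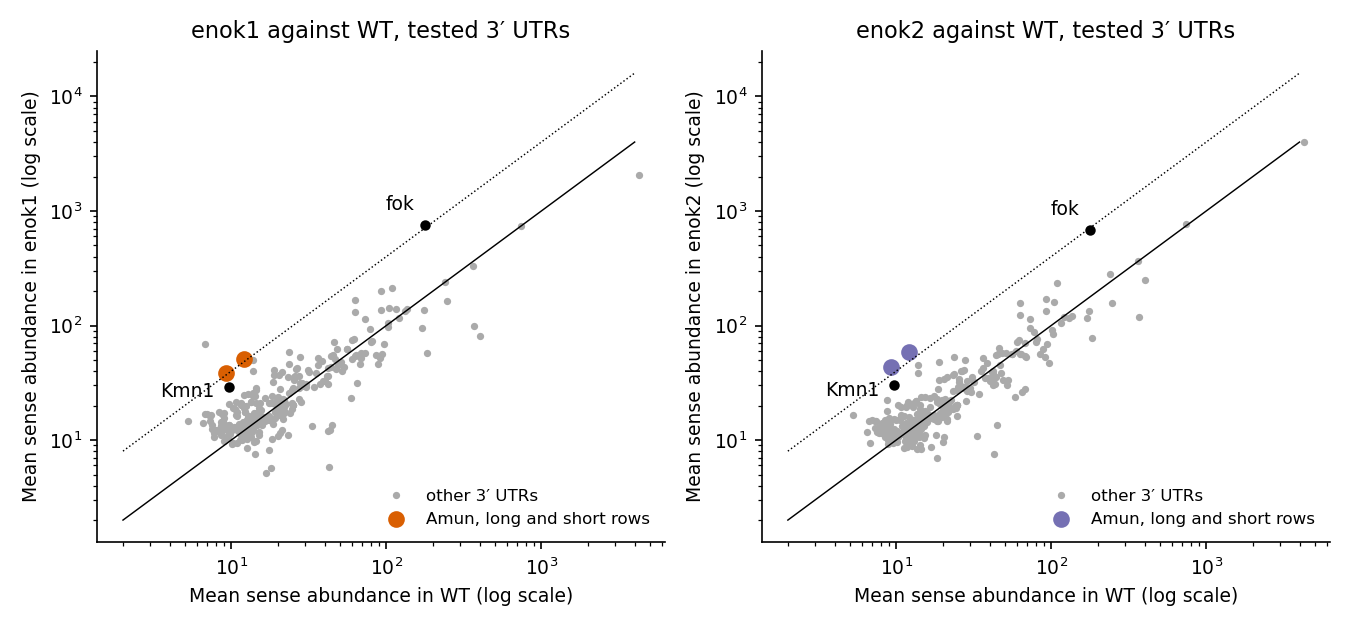
Mean sense abundance in enok1 (left panel) and enok2 (right panel) against that in WT, on log axes, for the 298 tested 3′ UTRs (grey points). The solid line marks equal abundance and the dotted line a ratio of 4; the 2 Amun forms (coloured) and fok lie near the dotted line in both panels, and Kmn1, a neighbour of Amun, lies somewhat below it.

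The enok2 and enok1 mutants were set against each other as well, a contrast that had not been used to choose Amun. The long form was higher in enok2 than in enok1 by 0.27 on the log2(abundance + 1) scale, with a 95% interval of -0.27 to 0.80 (limma, unadjusted p = 0.296, adjusted p = 0.910 over 298 3′ UTRs). The short form differed by 0.22, with an interval of -0.35 to 0.79 (limma, adjusted p = 0.910). An exact two-sided permutation test of the log2 abundances gave p = 0.5 for the long and p = 0.6 for the short form, where 0.1 is the smallest p that 3 against 3 libraries allow. The enok2 and enok1 libraries overlapped for both forms. Without enok1 replicate 1 the difference of the short form changed to -0.08 and that of the long form to 0.01. Over all tested 3′ UTRs, limma called 0 between the mutants (0.0%), with 21 at an unadjusted p under 0.05.

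How the reads of a gene were divided among its rows bears on these levels. Low values fell on a regular grid in each library, and its spacing of 0.271 to 0.486 was read as what 1 read is worth. For 3′ UTRs with no other start nearby, 70.8% to 77.9% of low values of single rows were whole multiples of this step, against 3.1% to 5.5% expected by chance. The step had been fitted to such single-row values, so this share describes the fit and is not a test of it. Where 2 identical rows covered the same sequence, only 33.3% to 46.8% were whole steps, but 79.3% to 85.7% were whole multiples of the step divided by 2, against 6.2% to 11.1% by chance (tolerance 0.0075 in each case). Reads had therefore been shared out equally among overlapping rows, and a gene with many transcripts has low values per row. The abundance of Amun as a gene is the sum over its 11 rows.

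This sum was 283, 576 and 476 in the enok1 libraries, 598, 436 and 487 in the enok2 libraries, and 100.02, 92.6 and 130 in the WT libraries. The groups of mutants and WT stood as far apart as for the single rows. The mean was 445 ± 149 in enok1 and 507 ± 83.1 in enok2, against 108 ± 20.0 in WT (SD, n = 3 each), 4.13 and 4.71 times the WT mean. The position of Amun among all features, by abundance not corrected for length, depended on this summing. Per row, the long form ranked 52 of 4601 by its mean in enok1 and 36 in enok2, against 221 in WT. The short form ranked 74 in enok1 and 57 in enok2, against 299 in WT.

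With rows summed per gene, Amun ranked 5 of 3104 by its mean in enok1 and 5 in enok2, against 30 in WT. By library, the rank of the sum was 7, 5 and 5 in enok1, 5, 5 and 6 in enok2, and 31, 38 and 25 in WT. Amun was thus among the 10 highest 3′ UTR sources of sense small RNAs in each of the 6 mutant libraries and in none of the WT libraries. Among 490 genes with a summed mean of at least 10, limma called 22.4% higher in enok1 and 13.3% in enok2 than in WT. The fitted change of the Amun sum was 1.99 (SE 0.262) in enok1 and 2.23 (SE 0.202) in enok2, which placed it at rank 5 and rank 3 of 490, and the median of all 490 genes was 0.20 and 0.14.

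Close to Amun in that order stood 3 genes that are named here after their values were seen. The raw gene, known from dorsal closure of the embryo, changed by 3.02 in enok1 and 2.11 in enok2. Marf1, related to a meiosis regulator of mammals, changed by 2.59 in enok1 and 2.71 in enok2. The gene kuk, which encodes a protein of the nuclear envelope, changed by 2.40 in enok1 and 2.27 in enok2. The sums were added as an alternative after seeing how reads had been shared out.

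Both Amun 3′ UTRs start behind the same stop codon. In the newer BDGP6 annotation, used here for lengths and for what lies within or near a 3′ UTR, the long form has 1390 bases and the short form 686. The 704 bases found only in the long form equal the distance between the 2 lower coordinates in dm3. Since the gene lies on the minus strand, this part is the distal end of the transcript. A read in the shared part falls on all 11 rows and a read in the distal part on the 2 long rows, so the difference between a long and a short row holds the distal reads divided by 2.

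The ratio of the long to the short row was 1.41, 1.33 and 1.26 in enok1, 1.35, 1.401 and 1.38 in enok2, and 1.45, 1.30 and 1.22 in WT. The groups overlapped, and WT spanned the widest range. The mean ratio was 1.34 ± 0.0775 in enok1 and 1.38 ± 0.0272 in enok2, against 1.32 ± 0.119 in WT (SD, n = 3 each). Between enok2 and enok1 the log2 ratio differed by 0.04 (SE 0.051, exact two-sided permutation p = 0.5). Both forms therefore differed from WT by a similar factor, which follows in part from the reads that they share.

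Expressed as reads, the distal part held 73, 87 and 53 reads in enok1, 75, 61 and 80 in enok2, and 19, 12 and 12 in WT. The computed numbers lay within 0.08 of a whole number in all 9 libraries, with a mean distance of 0.045, against 0.25 by chance. The shared part held 969, 1432 and 1125 reads in enok1, 1189, 835 and 1163 in enok2, and 231, 220 and 300 in WT, values for which 2 printed decimals are too few to test whether they are whole. The distal part thus contributed few reads in any group, and its WT values rest on 12 to 19 reads.

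The distal share of all Amun reads was 7.01%, 5.73% and 4.50% in enok1, 5.93%, 6.81% and 6.44% in enok2, and 7.60%, 5.17% and 3.85% in WT. In single libraries the 95% Wilson intervals cover counting error only, and in enok1 replicate 1 the interval was 5.61% to 8.72%. They were wider in WT, with 4.92% to 11.56% in replicate 1, 2.98% to 8.82% in replicate 2 and 2.21% to 6.60% in replicate 3. The 3 groups overlapped in this share, as they did in the ratio.

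Per 100 bases, the shared part was far denser in small RNAs than the distal part. Its abundance per 100 bases was 38.3, 79.1 and 66.3 in enok1, 82.0, 59.2 and 66.5 in enok2, and 13.5, 12.8 and 18.3 in WT. The distal part had 2.81, 4.68 and 3.04 in enok1, 5.04, 4.21 and 4.46 in enok2, and 1.08, 0.679 and 0.713 in WT. In every library the shared part was at least 12.4 times as dense as the distal part, and the highest ratio of densities was 25.6, in WT.

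Each part on its own differed between mutants and WT. For the distal part the ratio of means over WT was 4.26 in enok1 and 5.54 in enok2, and for the shared part 4.13 in enok1 and 4.66 in enok2. Every mutant library exceeded every WT library in both parts. Between enok2 and enok1 the distal part differed by 0.41 on the log2 scale (SE 0.241, exact two-sided permutation p = 0.3) and the shared part by 0.23 (SE 0.344, p = 0.6 by the same exact test). The distal part also holds the hairpin of mir-9370, of 50 bases on the same strand. Whether reads from this hairpin are among those counted was not tested.

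**Figure D3:**
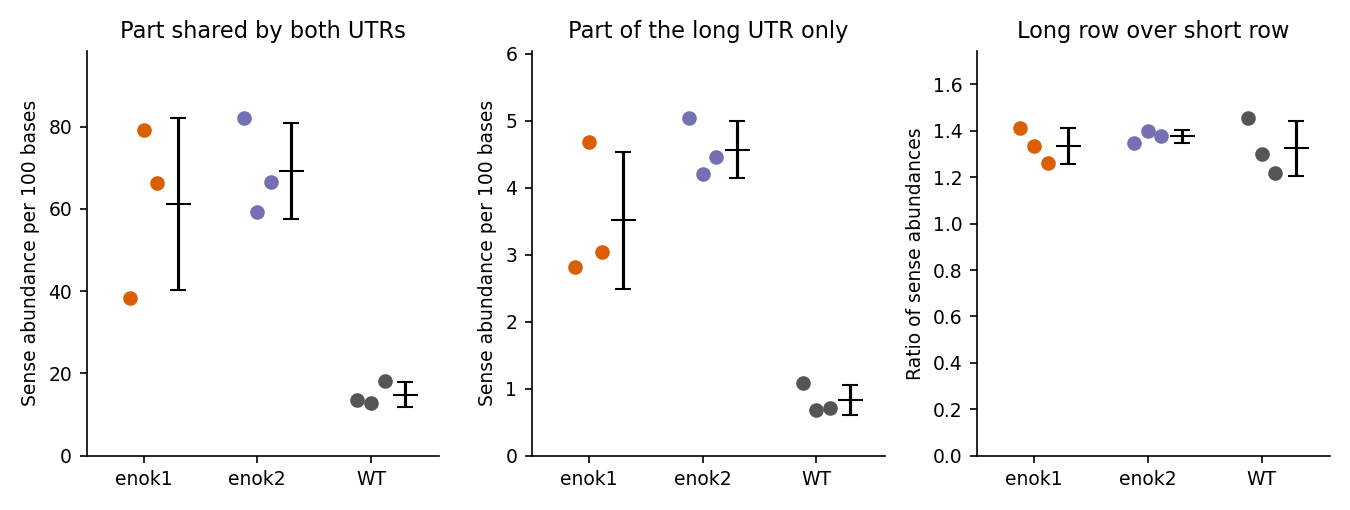
Sense abundance per 100 bases in the part shared by both Amun 3′ UTRs (left) and in the part of the long form only (middle), and the ratio of the long to the short row (right), on linear axes from 0. Points are libraries 1 to 3 from left to right and black marks are means ± SD (n = 3); both parts are higher in the mutants than in WT, whereas the ratio overlaps between groups, from 1.22 to 1.45.

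Antisense small RNAs of Amun were listed at 0 in all 9 libraries for both forms. A count of 0 allows up to 3 reads, which corresponds to an antisense abundance of at most 0.814 to 1.46 per library, depending on the value of 1 read. The summed sense abundance was 92.6 or more in every library. The BDGP6 annotation places 0 transposon insertions within the Amun gene, and the nearest ones stand 69636 bases away toward lower and 28057 bases away toward higher coordinates.

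The surroundings of Amun on chromosome X held 37 other distinct 3′ UTRs of 25 genes within 200000 bases. Most of these gave few small RNAs per row. A mean abundance per row of at least 10 was reached by 2 of them, of at least 1 by 23, and 12 lay within 50000 bases. Of the 2 that could be tested at the minimum of 10, 1 was called higher than WT in both mutants, as were 13.4% of all 298 tested. With so few neighbours, this count says little about the region. Summed over their rows, as for Amun as a gene, bif and Hsc70-3 also reached 10. The bif sum was called higher in enok1 (0.99, limma adjusted p = 0.0117), as were 22.4% of 490 genes. It was not called in enok2 (0.63, limma adjusted p = 0.110). The Hsc70-3 sum was called in neither, with -0.48 in enok1 and -0.60 in enok2 (limma adjusted p = 0.0887 and 0.0603).

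The called neighbour was Kmn1, which encodes a subunit of the kinetochore and has its lower coordinate at 11465416, 138737 bases from Amun on the same strand. Its sense abundances were 19.4, 39.0 and 29.1 in enok1, 33.6, 22.4 and 34.3 in enok2, and 9.12, 7.73 and 12.1 in WT. The mutant libraries all exceeded the WT libraries, and enok1 replicate 1 and enok2 replicate 2 were the lowest of their groups, as for the Amun short form. Kmn1 differed from WT by 1.47 in enok1 (SE 0.258, limma adjusted p = 0.00174) and by 1.54 in enok2 (SE 0.218, limma adjusted p = 0.00102). When the spread of Kmn1 alone was used in the test, the call in enok1 was lost (adjusted p = 0.0743). The WT mean of Kmn1, 9.64, was itself below the minimum of 10, and at a minimum of 1 it was called in both mutants.

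Unlike Amun, Kmn1 also had antisense small RNAs in every library. They amounted to 1.73, 2.97 and 2.39 in enok1, 4.10, 2.95 and 2.47 in enok2, and 0.93, 0.92 and 1.62 in WT. The Kmn1 3′ UTR meets that of CG11699, which lies on the opposite strand with its lower coordinate at 11465334. BDGP6 lists 2 distinct Kmn1 3′ UTRs, of which 1 has 406 bases, and places a pogo transposon fragment of 186 bases within the annotated Kmn1 3′ UTR sequence. Which of the 2 corresponds to the measured form was not examined. The part of CG11699 or of the pogo fragment in the Kmn1 values was not tested.

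The other tested neighbour, rudhira (NM_001258702), a gene of the cytoskeleton 124440 bases away, was not called. It had 10.9, 11.5 and 17.0 in enok1, 5.83, 14.6 and 13.1 in enok2, and 11.3, 12.1 and 7.66 in WT. These groups overlapped, with fitted differences of 0.31 in enok1 (limma adjusted p = 0.390) and 0.03 in enok2 (limma adjusted p = 0.948).

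The nearest neighbours had low values. FucT6, a fucosyltransferase gene 3545 bases toward lower coordinates, had 1.09, 1.89 and 2.43 in enok1, 1.89, 1.46 and 3.53 in enok2, and 1.20, 1.99 and 2.92 in WT. FucT6 overlapped between all groups. Tango10, 11965 bases toward higher coordinates, had 1.27, 1.77 and 1.35 in enok1, 1.42, 1.62 and 2.35 in enok2, and 0.93, 0.66 and 0.70 in WT. All mutant libraries stood above WT for Tango10, at values too low for the minimum of 10.

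Among more distant neighbours, Polr2A, the largest subunit of RNA polymerase II, averaged 9.52 ± 1.28 in enok1 and 10.4 ± 0.195 in enok2, against 8.13 ± 1.63 in WT (SD, n = 3 each). Hsc70-3, a chaperone of the endoplasmic reticulum, had lower means in the mutants, with 6.34 ± 0.770 in enok1 and 5.85 ± 1.29 in enok2, against 8.94 ± 1.13 in WT (SD, n = 3 each). CkIIbeta (NM_080762), the regulatory subunit of casein kinase 2, averaged 4.33 ± 0.953 in enok1 and 2.58 ± 0.852 in enok2, against 3.29 ± 0.970 in WT (SD, n = 3 each). None of these 3 had means as far from WT as Amun, and the means of Hsc70-3 in both mutants and of CkIIbeta in enok2 were below WT.

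The 4 distinct 3′ UTRs of bif, a cytoskeletal gene first known from photoreceptors, lie 16181 to 20568 bases from Amun and overlap each other. The highest of them, NM_001272527, had 5.14, 4.66 and 5.77 in enok1, 5.91, 2.27 and 4.83 in enok2, and 2.28, 2.85 and 2.03 in WT. It stood clear of WT in enok1 but not in enok2.

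When 3′ UTRs with a mean of at least 1 were tested, 3 of 23 neighbours were called higher in enok1, against 6.32% of 2769, and 1 in enok2, against 1.01%. Those in enok1 were Kmn1 and the bif forms NM_001272527 (limma adjusted p = 0.0308) and NM_078573 (limma adjusted p = 0.04998), and the one in enok2 was Kmn1 (limma adjusted p = 0.0101). The median difference of the 23 neighbours was 0.32 in enok1 and 0.19 in enok2, beside 0.20 and 0.12 over all 2769. Values above 0 were found in 17 of 23 in enok1 and 19 of 23 in enok2, against 69.8% and 62.5% of all tested. The bif forms overlap and share reads, so their calls are not independent. Some other genes, such as CkIIbeta and rudhira, also stand among the 23 with more than 1 form. These counts and medians are therefore not over independent members.

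With each distinct 3′ UTR counted once, the neighbours without Kmn1 summed to 83.1, 85.0 and 86.2 in enok1 and 74.8, 68.6 and 90.2 in enok2. The same sum was 62.4, 78.1 and 67.1 in WT. Counted in this way, the enok1 libraries stood above WT, while the enok2 libraries overlapped with it. This is not the abundance of these genes, because 3′ UTRs that stand in several rows were not weighted by them. Hsc70-3, with lower means in the mutants, stands in 4 rows, so the separation of enok1 from WT depends on this counting. Within 50000 bases, 7 neighbours had a mean abundance of at least 1, and none of these differed from WT as much as Amun did.

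**Figure D4:**
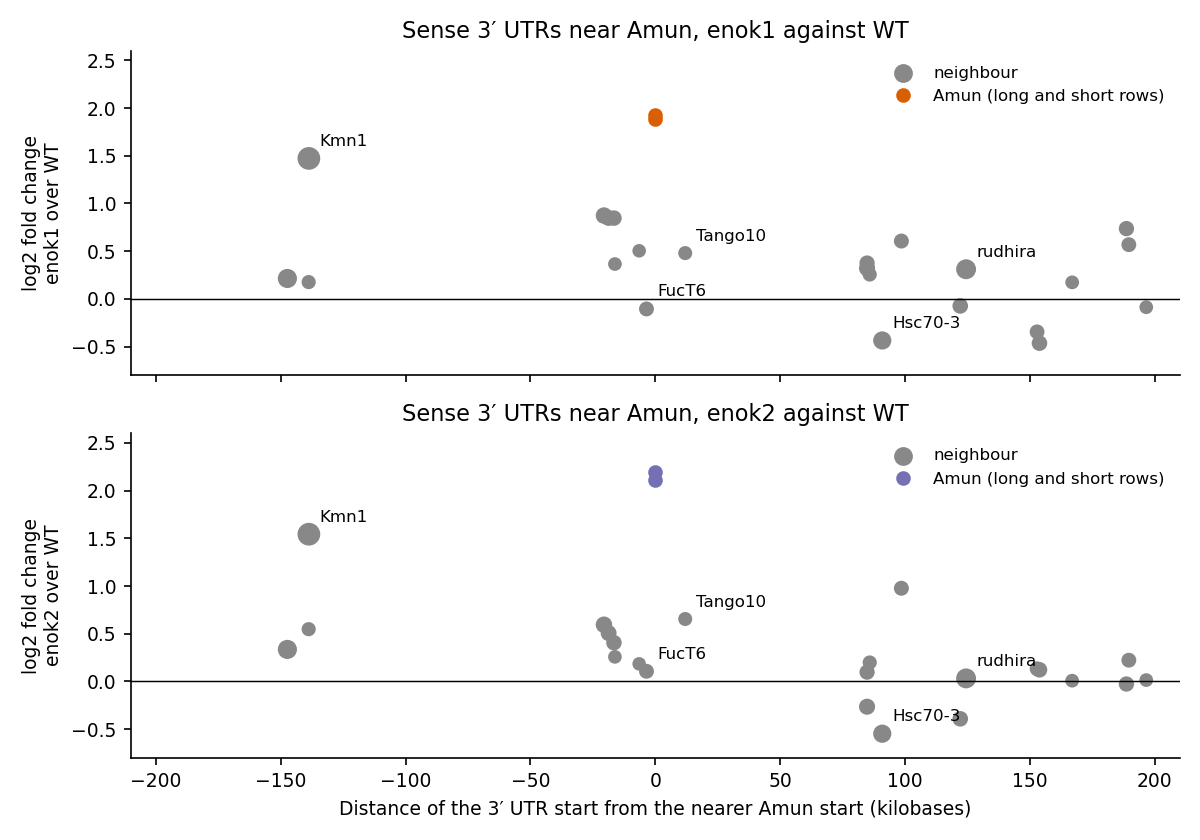
Difference in sense abundance from WT, as log2(abundance + 1), for enok1 (top) and enok2 (bottom), by distance of each 3′ UTR from the nearer Amun start in kilobases. Grey points are the 23 neighbours with a mean abundance of at least 1, larger for higher means, and coloured points are the 2 Amun forms at 0; Kmn1 at 138737 bases is the neighbour nearest to them in size of change.

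Likeness to Amun was described by Pearson's r of log2(abundance + 1) with the long form over the 9 libraries, which share the miRNA scaling of each library. The short form had r = 0.997. Of 296 other tested 3′ UTRs, the most alike were Agpat1, which encodes a lipid acyltransferase (r = 0.983), Kmn1 (r = 0.979), Rack1, a scaffold protein at the ribosome (r = 0.979), fok (r = 0.977) and DIP-alpha, a cell surface immunoglobulin protein (r = 0.976). The median r of the others was 0.20. Likeness in r did not mean a like size of change.

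Agpat1 had 180.6, 254.3 and 209.1 in enok1, 254.0, 198.3 and 256.4 in enok2, and 101.5, 110.5 and 115.8 in WT, a difference from WT of 0.96 in enok1 and 1.10 in enok2. Rack1 differed by only 0.56 in enok1 and 0.53 in enok2. With group means removed, r with Amun was 0.809 for Agpat1, 0.925 for Kmn1, 0.871 for Rack1, 0.935 for fok and 0.898 for DIP-alpha. An r above 0.9 was reached by 26 of the 296, of which 10 lie on chromosome X, as do 76 of the 296. Of these 26, 24 were called higher in both mutants, beside 13.4% of all 298 tested. A high r over the 9 libraries thus largely restates the difference from WT for which Amun was chosen.

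**Figure D5:**
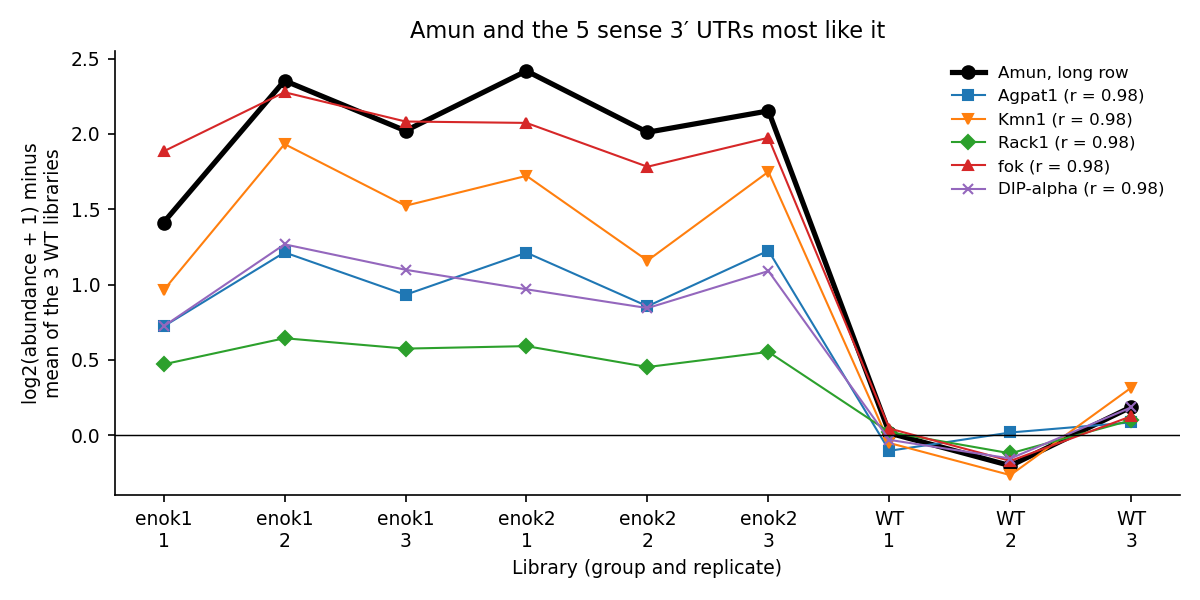
Value of log2(abundance + 1) minus the mean of the 3 WT libraries, for the long Amun form (thick black line) and the 5 most similar sense 3′ UTRs, in each library by group and replicate. The lines go up and down together within the mutant groups, and their heights range from near 0.5 for Rack1 to near 2 for fok and Amun.

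Few other genes of the processes in which Amun is known could be tested. Of 30 Notch pathway genes, 10 had rows and 2 reached the minimum of 10. The gene dx, an E3 ligase that regulates Notch, averaged 11.99 in enok1 and 13.99 in enok2, against 8.09 in WT. Since its WT mean was below 10, dx reached the minimum only through the mutants, and at a minimum of 1 it was called in neither (limma adjusted p = 0.224 in enok1 and 0.170 in enok2). The repressor gene ttk was called in neither mutant, with differences of 0.18 in enok1 and 0.08 in enok2. Of 14 genes of DNA glycosylases and base excision repair, 2 had rows and only Tdg, the thymine DNA glycosylase, was tested. It averaged 116.4 in enok1 and 117.7 in enok2, against 121.5 in WT, and was not called.

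Some markers of the cells in the ovary also differed from WT, with more calls of follicle cell genes in enok1 than in enok2. Of 13 tested rows of 10 follicle cell genes, which are mostly those of eggshell and yolk proteins, 0 were higher in either mutant, 8 were lower in enok1, against 6.71% of all 298 tested, and 1 was lower in enok2, against 5.7%. Their medians were -1.002 in enok1 and -0.49 in enok2, and their summed abundance ranged from 1712 to 3514 in enok1, from 3428 to 6316 in enok2 and from 3998 to 6934 in WT. Most of this sum came from Cp15, which alone averaged 2075 in enok1, 3968 in enok2 and 4271 in WT. Of the same list, tj was not called, with 62.9 in enok1 and 56.9 in enok2, against 55.5 in WT (NM_136125).

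Of 7 germline genes, 2 had rows, and their summed abundance ranged from 41.5 to 59.1 in enok1 and from 41.3 to 47.5 in enok2, against 18.8 to 28.7 in WT. The germline gene osk, which directs the assembly of pole plasm, averaged 17.15 per row in enok1 and 14.96 in enok2, against 8.93 in WT, and likewise reached the minimum of 10 only through the mutants. At a minimum of 1, osk was called higher in enok1 (limma adjusted p = 0.0495) and not in enok2 (limma adjusted p = 0.185). Summed over its rows, osk averaged 34.3 in enok1 and 29.9 in enok2, against 17.9 in WT. As sums, both germline genes with rows, osk and orb, were called higher in both mutants, as were 11.6% of 490 genes. Their median difference was 0.96 in enok1 and 0.80 in enok2. The WT mean of the orb sum, 7.17, was below 10. Rows of nos, vas, grk, bcd and aub were not among the features analysed here. Of 7 genes of other tissues 2 had rows, with sums of at most 9.66 in any library. The part of these shifts in the Amun difference was not tested.

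The sum of all sense 3′ UTR abundances lay between 26391.7 and 31773.6 in the 9 libraries, whereas that of all piRNA clusters was 301140 to 438338 in the 6 mutant and 548223 to 577943 in the 3 WT libraries. Scaling to the cluster sum moved the median of the 298 tested 3′ UTRs to 0.69 in enok1 and 0.49 in enok2, and the long Amun form to 2.52 and 2.62. The split of calls then was 195 higher and 9 lower in enok1, beside 55 and 20 with the deposited scaling, and 157 higher and 7 lower in enok2, beside 53 and 17. Relative to those medians Amun stood 1.83 above in enok1 and 2.13 above in enok2.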

How the data were processed

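The authors deposited 1 sense and 1 antisense table of small RNA abundance per 3′ UTR, and the same per piRNA cluster, with 1 column for each of the 9 libraries and no pooling. These values are a signal never below 0: reads were trimmed with Trimmomatic per the labels and, by the study's methods, processed with the small RNA mode of piPipes on UCSC dm3 without mismatches, keeping unique mappers and normalizing to miRNAs. They are not counts, so precision was judged from the spread between libraries, and depth from the value of 1 read.

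Of 8510 rows, 8346 (98.1%) matched a symbol of the Release 6 RefSeq table; rows with the same start, strand and values were merged to 4601. Lengths, transposons and hairpins came from BDGP6, of another build than dm3, so no coordinate was taken from it, only lengths, distances and what lies within a 3′ UTR. Groups came from the sample labels. Pairs of groups were compared with limma 3.58.1 in R 4.3.3 on log2(abundance + 1), separately by strand, over 298 sense and 23 antisense 3′ UTRs with a mean of at least 10 over the 9 libraries, with Benjamini-Hochberg adjustment and a call at adjusted p under 0.05. The fits were tested on simulated data. Alternatives were pseudocounts of 0.1 and 5, a minimum of 1 or none, 3 scalings, other variance models, a replicate block and leaving out each library. Sums over the rows of a gene, and the division into shared and distal reads, were added after seeing the data.

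Named neighbours were all those with a mean of at least 10, then the highest up to 6, and the nearest on each side; bif forms beyond these, CG11699, raw, Marf1 and kuk were named after their values were seen. The 5 most alike by Pearson's r were named. Amun, its neighbourhood and the gene lists were chosen with earlier results of these data known.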

Additional observations from a re-analysis of the deposited data

How the results depend on the processing

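The difference of both Amun forms from WT kept its direction under every alternative run, with 1.66 to 2.52 for the long form in enok1 and 1.90 to 2.62 in enok2, and 1.56 to 2.47 for the short form in enok1 and 1.75 to 2.53 in enok2. It moved by more than the spread between libraries with scaling to the cluster sum (long form 2.52 in enok1 and 2.62 in enok2, short form 2.47 and 2.53) and, in enok2, with a pseudocount of 5 (long form 1.90, short form 1.75). Leaving out each library in turn gave 1.72 to 2.19 for the long form in enok1 and 2.08 to 2.29 in enok2, and 1.68 to 2.19 for the short form in enok1 and 1.98 to 2.25 in enok2. Between enok2 and enok1 these ranges were 0.01 to 0.48 for the long and -0.077 to 0.43 for the short form, with the lowest values without enok1 replicate 1, and no alternative gave a call. The log2 ratio of the 2 forms ranged from -0.04 to 0.08 for enok1 against WT, from 0.00 to 0.13 for enok2 against WT, and from 0.00 to 0.09 between the mutants.

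The 75 sense calls in enok1 became 222 at a minimum of 1, 115 with no filter, 129 and 204 with scaling to the cluster median of ratios and cluster sum, 38 with own variances and 133 with rows summed per gene, and lay between 57 and 73 on leaving out single libraries. The 70 calls in enok2 became 44 at a minimum of 1, 41 with no filter, 164 with scaling to the cluster sum and 37 with own variances, and lay between 40 and 62, the fewest without enok2 replicate 3. Between the mutants, 0 to 3 were called. The 11 antisense calls in enok1 became 47 at a minimum of 1, 43 with no filter, 5 with own variances and 7 with the replicate block, and 5 to 12 with a library left out, the fewest without WT replicate 2. The 12 in enok2 became 57 at a minimum of 1 and 45 with no filter, and 10 to 13 with a library left out, and between the mutants up to 2 were called, among them 2 with no filter and 2 with all groups in 1 fit. Among neighbours, the 1 called in both mutants became 0 within 50000 bases, where 0 neighbours reached the minimum of 10 per row and none could be tested per row. For Kmn1 the enok2 against enok1 difference of 0.07, not called, turned to -0.047 and -0.088 under the cluster scalings and ranged from -0.18 to 0.30 with a library left out.

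Replicate numbers were not used to pair the libraries in the main fits. Correlations of same-numbered deviations were low, from -0.01 to 0.22. Each enok2 library correlated best with its own number in enok1, while several mutant libraries did not do so in WT. These values do not settle whether same-numbered libraries of the mutants belong together. With the replicate block the calls were 78 in enok1, 69 in enok2 and 0 between the mutants, 11 antisense in enok2 and 2 antisense between the mutants.

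The limits of these values are the 3 libraries per group, a scaling that rests on miRNAs, reads shared out among overlapping transcripts, and 12 to 19 WT reads in the distal part of Amun.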
